A study of Rattus norvegicus with 4 samples.

Results

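Cytokine, effector and feedback genes of the NF-kB pathway were followed in rat hippocampal neuron cultures after knockdown of Gld2. The set held 10 genes by name: the cytokines Tnf, Il6 and Il1b, the secreted effector Lcn2, the adhesion molecule Icam1, the inhibitors Nfkbia and Tnfaip3, and the NF-kB subunits Nfkb1, Nfkb2 and Relb. A probe set carrying the symbol alone was found for 8 of them, out of 14497 genes measured in all. The platform table used here listed no probe set under Tnfaip3 or Relb, and these 2 genes were not analysed here. The genes were chosen by name with the differences between the groups already in view, so their levels and differences are given as a description with no test of their own. Where a gene had several probe sets the brightest by the mean over the 4 arrays was to be taken, but each of the 8 had 1.

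All 4 samples were primary cultures of hippocampal neurons from embryonic rats, 2 treated with an shRNA against Gld2 (Gld2 shRNA) and 2 with a scrambled shRNA as control. Gld2, with the current symbol Tent2, is a cytoplasmic poly(A) polymerase, and the series set out to profile poly(A) RNA after its knockdown. The RNA was captured on poly(U) Sepharose and eluted by heat before it was amplified and hybridised to whole-transcript Affymetrix arrays, so a change in the amount of an mRNA and a change in how its tail is captured cannot be told apart. The vector, the shRNA sequences, the time after transduction and the origin of the cultures (separate preparations or not) are not stated in the labels used here. Values are log2 RMA values, 1 unit being a doubling, and each difference is the mean of the knockdown (Gld2 shRNA) cultures minus that of the control (scrambled shRNA) cultures on that scale. Tent2 averaged 9.42 ± 0.106 (SD, n = 2) with the knockdown and 10.70 ± 0.0428 (SD, n = 2) in the controls, a level 2.43-fold lower. The array medians lay between 8.41 and 8.48.

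NF-kB is a family of dimeric transcription factors that is held in the cytoplasm by IkB proteins. Signals from receptors for tumour necrosis factor, interleukin-1 or microbial products activate the IkB kinase, IkB is degraded, and the freed dimers enter the nucleus and switch on inflammatory genes. Among those targets are the genes of the inhibitors themselves, which close a negative feedback loop, and those of several subunits. In the brain these genes are best known from microglia and astrocytes, and neurons carry the pathway as well.

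The promoters of the genes at the centre of this loop are shown first, because the 4 measured genes with an NF-kB consensus match in the window had differences as far apart as 0.07 and 0.93. Each sequence is the RefSeq window of GRCr8 from 250 bases before to 50 bases after the gene start, on the gene's strand and read 5′ to 3′, with NF-kB consensus matches on either strand in capitals. The windows lie at chr4:5894526-5894825 (minus strand) for Il6, chr6:78597023-78597322 (minus strand) for Nfkbia, chr1:255108124-255108423 (plus strand) for Nfkb2, chr2:226805413-226805712 (minus strand) for Nfkb1 and chr3:36081731-36082030 (minus strand) for Lcn2. The consensus searched for was GGGRNYYYCC, where R is A or G, Y is C or T and N is any base. Lcn2 is included as the gene with the largest difference of the 8, and its window held no full match. Near its 5′ end it holds gggaatgtcc, which has a g where the consensus needs C or T and so was not counted.
Il6: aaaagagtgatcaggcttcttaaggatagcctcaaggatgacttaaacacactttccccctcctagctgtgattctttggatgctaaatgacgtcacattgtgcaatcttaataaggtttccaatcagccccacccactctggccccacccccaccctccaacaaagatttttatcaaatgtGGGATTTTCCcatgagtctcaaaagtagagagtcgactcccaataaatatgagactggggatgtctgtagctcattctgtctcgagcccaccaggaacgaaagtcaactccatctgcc
Nfkbia: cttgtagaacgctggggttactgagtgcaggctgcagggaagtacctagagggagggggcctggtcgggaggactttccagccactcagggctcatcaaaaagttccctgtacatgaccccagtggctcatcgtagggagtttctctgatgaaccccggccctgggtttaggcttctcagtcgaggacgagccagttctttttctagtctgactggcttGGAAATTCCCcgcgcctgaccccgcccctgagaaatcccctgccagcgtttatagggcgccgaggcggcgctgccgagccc
Nfkb2: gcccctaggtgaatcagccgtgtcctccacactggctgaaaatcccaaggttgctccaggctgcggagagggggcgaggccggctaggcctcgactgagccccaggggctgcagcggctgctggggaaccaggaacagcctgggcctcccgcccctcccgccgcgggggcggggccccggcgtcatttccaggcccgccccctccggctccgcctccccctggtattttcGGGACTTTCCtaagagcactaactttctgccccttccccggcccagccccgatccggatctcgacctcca
Nfkb1: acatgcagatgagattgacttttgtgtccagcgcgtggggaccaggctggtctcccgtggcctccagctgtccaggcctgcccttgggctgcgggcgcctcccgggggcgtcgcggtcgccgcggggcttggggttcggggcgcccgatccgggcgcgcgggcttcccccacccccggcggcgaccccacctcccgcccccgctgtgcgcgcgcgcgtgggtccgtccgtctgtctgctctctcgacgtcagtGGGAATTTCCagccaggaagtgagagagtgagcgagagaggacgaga
Lcn2: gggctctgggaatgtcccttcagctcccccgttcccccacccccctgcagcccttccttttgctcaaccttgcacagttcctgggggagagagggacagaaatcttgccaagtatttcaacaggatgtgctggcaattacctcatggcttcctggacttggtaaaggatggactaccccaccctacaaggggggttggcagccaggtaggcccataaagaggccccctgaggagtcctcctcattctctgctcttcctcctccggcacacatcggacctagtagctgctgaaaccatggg

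A promoter window was found for 9 of the 10 genes, Relb being the one without. The NF-kB consensus matched in 5 of the 9 windows, those of Il6, Nfkbia, Tnfaip3, Nfkb1 and Nfkb2, and in 5.02% of all 33469 windows of the table. The match lay 68 to 59 bases before the start in Il6, 31 to 22 bases before it in Nfkbia (on the opposite strand), 20 to 11 bases before it in Nfkb2, and at bases 4 to 13 after it in Nfkb1. The windows of Tnf, Il1b, Lcn2 and Icam1 held no match to that consensus, which says only that these letters are not in the window. A binding site with other letters would not be found by this search. A core of the interferon-stimulated response element, GAAANNGAA on either strand, was found in 1 window, that of Nfkbia from 55 to 47 bases before the start, and in 9.71% of all windows. The palindromic core TTCNNNGAA, bound by STAT dimers, was found in that of Icam1 alone, 107 to 99 bases before the start, and in 8.87% of all windows. The letters TGANTCA, an AP-1 site loosened from C or G to any base in the middle, were found in 7.33% of all windows. Among the 9 windows they were found in those of Tnfaip3, as TGACTCA, and Nfkb2, as TGAATCA, which has A in the middle. In none of these windows did matches of different motifs overlap. The map of motif positions shows the windows of the measured genes, without that of Tnfaip3.

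**Figure D1:**
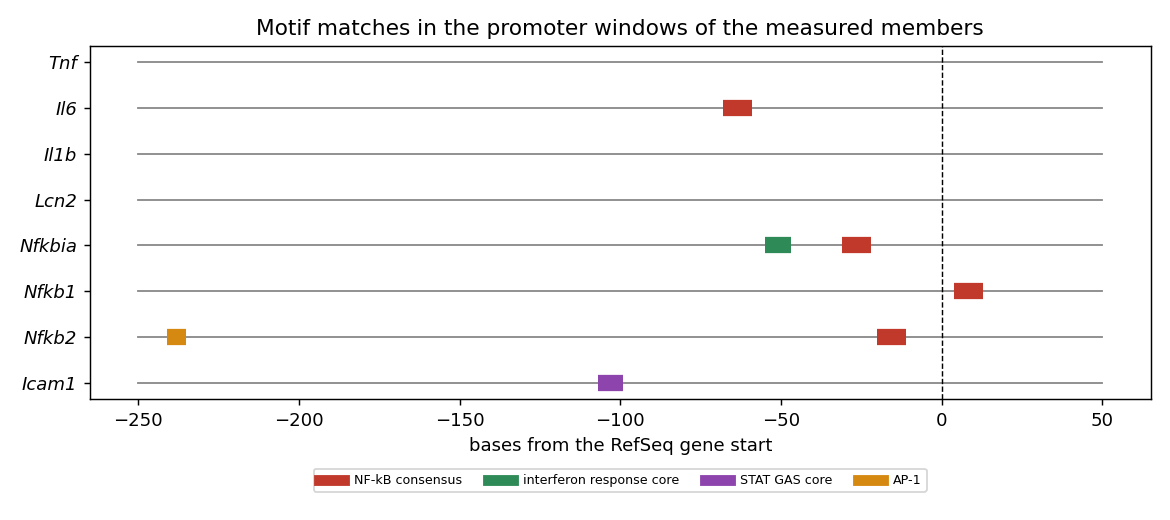
Motif matches on either strand in the promoter windows of the 8 measured genes; the x axis is the distance in bases from the RefSeq gene start (dashed line), and each grey line is 1 window. NF-kB consensus matches (red) lie in Il6, Nfkbia, Nfkb1 and Nfkb2, and the windows of Tnf, Il1b and Lcn2 hold no match to any of the 4 motifs.

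Across the 8 measured genes, the level was higher in the Gld2 shRNA cultures for Lcn2, Tnf and Il6, by 3.75-fold, 2.54-fold and 1.90-fold, and for Icam1 and Nfkbia by about 1.5-fold. Nfkb2 was higher by a smaller margin against a wide spread, and Il1b and Nfkb1 differed little. In limma's fit over all 14497 genes with Benjamini-Hochberg adjustment, 5 of the 8 (Tnf, Il6, Lcn2, Nfkbia and Icam1) were past an adjusted p of 0.05 and higher and 0 were lower (0 also at an unadjusted p under 0.05), where 1.69% of all genes were past it and higher and 2.41% past it and lower. Both Gld2 shRNA cultures lay above both scrambled shRNA cultures for 7 of the 8, where 24.0% of all genes were separated in that direction and 34.5% in the other. Since the genes were chosen with this contrast in view, nothing is read from either count. The median difference was 0.59 over the 8 genes and -0.02 over all genes, and the 8 ran from 0.07 to 1.91. Left-out controls changed the first count: without scrambled shRNA replicate 1 or without scrambled shRNA replicate 2 it was 2, Tnf and Lcn2, where the spread comes from the knockdown cultures alone. Without moderation of the variances across genes it was 0.

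**Figure D2:**
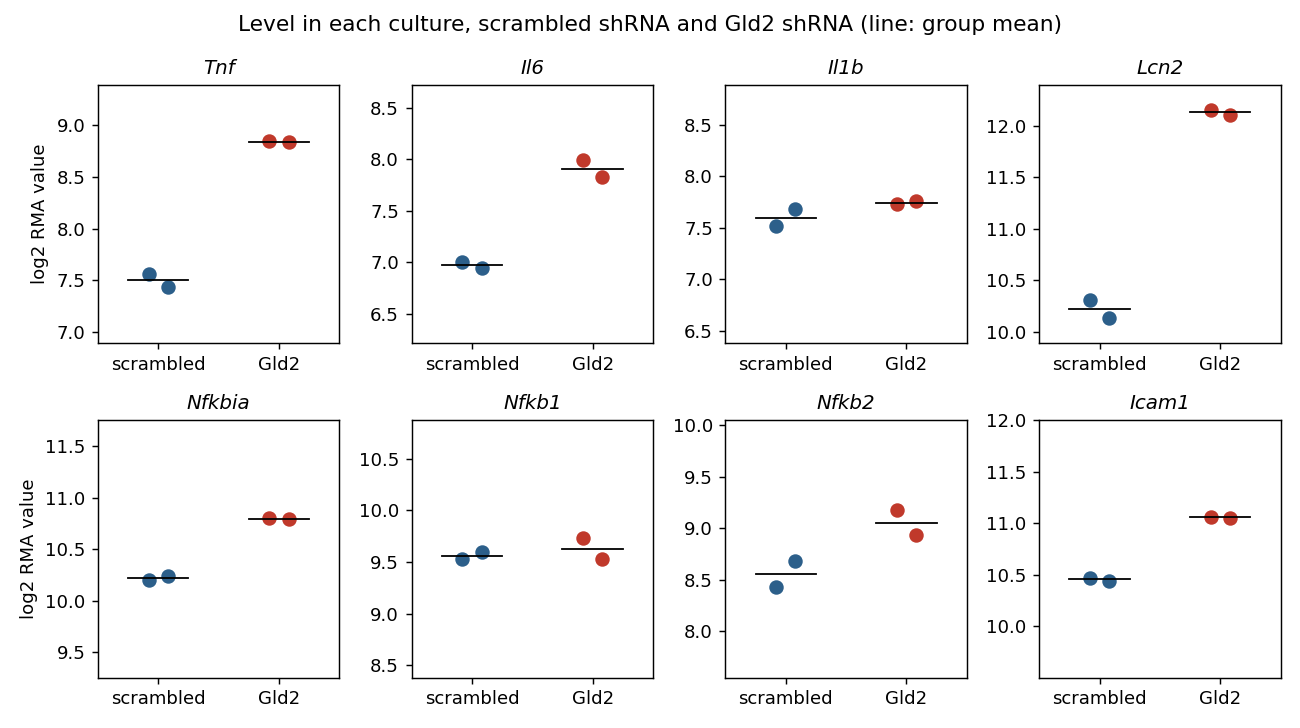
Level of each of the 8 measured genes as the log2 RMA value (y axis, each panel spanning the same 2.5 units) in the scrambled shRNA (blue) and Gld2 shRNA (red) cultures; points are single cultures and lines are group means. The groups are far apart for Lcn2 and Tnf, while the points of Nfkb1 overlap.

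Of the cytokines, Tnf and Il6 were higher with the knockdown and Il1b hardly was. Tnf, which encodes tumour necrosis factor, a principal activator as well as a product of NF-kB signalling, stood at 8.85 and 8.84 with the knockdown and at 7.56 and 7.43 in the controls. Group means were 8.84 ± 0.0104 (SD, n = 2) and 7.50 ± 0.0919 (SD, n = 2), and the difference was 1.34 with a standard error of 0.0699. The nearest cultures of the 2 groups were 1.27 apart, many times the spread within either group.

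Il6 encodes interleukin-6, a cytokine that signals through the STAT3 factor and drives the acute phase response. It stood at 7.99 and 7.83 with the knockdown and at 7.01 and 6.95 in the controls, with means of 7.91 ± 0.115 (SD, n = 2) and 6.98 ± 0.0402 (SD, n = 2). The difference was 0.93 with a standard error of 0.0770, and the groups did not overlap.

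Il1b, which encodes the precursor of interleukin-1 beta, stood at 7.73 and 7.76 with the knockdown and at 7.51 and 7.68 in the controls. The groups were separated by 0.05, less than the distance between the 2 control cultures. The difference was 0.15 with a standard error of 0.0761, and without scrambled shRNA replicate 1 it was 0.06.

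The secreted and surface effectors were both higher. Lcn2 encodes lipocalin-2, an iron-siderophore binding protein of innate defence that reactive astrocytes release, and it showed the largest difference of the 8. It stood at 12.15 and 12.10 with the knockdown and at 10.31 and 10.13 in the controls. The knockdown cultures averaged 12.13 ± 0.0396 (SD, n = 2) and the controls 10.22 ± 0.124 (SD, n = 2). The difference was 1.91 (standard error 0.0794), and the groups lay 1.79 apart at their nearest.

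Icam1, a surface ligand of leukocyte integrins, stood at 11.06 and 11.05 with the knockdown and at 10.47 and 10.44 in the controls. Its difference was 0.60 with a standard error of 0.0593, or 1.52-fold, and the SDs within the groups were 0.00697 and 0.0192 (n = 2 each). The difference was a modest one with little spread in either group.

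By the rule for likeness, the smallest Euclidean distance between mean-centred values over the 4 arrays, the genes nearest to Lcn2 were Slfn9 (distance 0.163), Ifih1 (0.187) and Cxcl1 (0.209). Ifih1 encodes an RNA sensor of the cytoplasm and Cxcl1 a chemokine that attracts neutrophils, and Slfn9 belongs to the Schlafen family. Their differences were 1.99, 2.07 and 1.77, with Lcn2 at 1.91. With 4 arrays in 2 groups, this likeness reflects little more than a difference of like size.

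The inhibitor and the subunit genes, which are also NF-kB targets, differed among themselves. Nfkbia, which encodes IkB alpha, the inhibitor that is degraded and then made anew in each round of signalling, stood at 10.81 and 10.79 with the knockdown and at 10.21 and 10.24 in the controls. Group means were 10.80 ± 0.0114 (SD, n = 2) and 10.22 ± 0.0218 (SD, n = 2), and the difference was 0.58 with a standard error of 0.0595, or 1.49-fold. The gap of 0.55 between the nearest cultures was far larger than the spread in either group.

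Nfkb2, which encodes the precursor that is processed in the alternative NF-kB pathway, stood at 9.18 and 8.93 with the knockdown and at 8.43 and 8.68 in the controls. The difference was 0.50 with a standard error of 0.117, the largest standard error of the 8. The SDs within the groups were 0.173 and 0.178 (n = 2 each), and the groups were separated by 0.25. Nfkb2 was not past the threshold with all 4 cultures, and it was past it in 3 of 12 alternatives, so its call depended on the processing. Its difference was 0.38 without Gld2 shRNA replicate 1 and 0.62 without Gld2 shRNA replicate 2.

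Nfkb1, which encodes the precursor of the subunit that pairs with RelA in the classical pathway, stood at 9.73 and 9.53 with the knockdown and at 9.52 and 9.59 in the controls. The groups overlapped, and the difference was 0.07 with a standard error of 0.0863. It was -0.03 without Gld2 shRNA replicate 1 and 0.17 without Gld2 shRNA replicate 2, so it had no stable sign. Set beside the promoter windows above, Nfkb1, Nfkb2, Nfkbia and Il6 all held the NF-kB consensus, with differences of 0.07, 0.50, 0.58 and 0.93. Lcn2, Tnf, Icam1 and Il1b, without a match to it, had 1.91, 1.34, 0.60 and 0.15, so the ranges overlapped. A link between the motif and the differences was not tested.

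**Figure D3:**
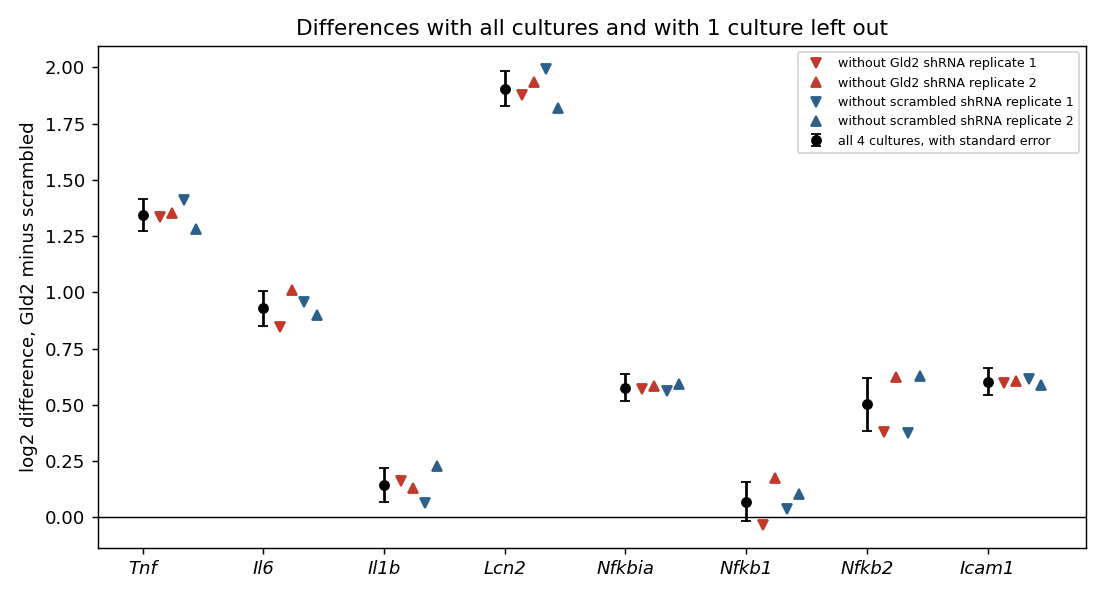
Log2 difference (y axis, Gld2 shRNA minus scrambled shRNA) of the 8 measured genes with all 4 cultures (black, bars are the standard error) and with 1 culture left out (triangles). Lcn2 stays between 1.82 and 1.99 and Tnf between 1.28 and 1.41, whereas Nfkb1 runs from -0.03 to 0.17.

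The other genes of the pathway, taken from lists by role that leave out the 10 genes, were tested in the same fit. Of 109 measured, 18 rose, 2 fell and 89 did not pass, with a median of 0.10. Over all genes 1.69% rose and 2.41% fell, and these shares stand beside the counts of every list below. At an unadjusted p under 0.05 by limma, 1339 of all 14497 genes were higher and 2348 lower. Unadjusted counts below are to be set beside these. The lists were chosen with earlier results of these data known, so their counts are a description. Of the targets, 13 of 26 rose, 1 fell and 12 did not pass, with a median of 0.41. The chemokine gene Ccl7 rose 5.41-fold (difference 2.44, 95% confidence interval from 2.26 to 2.61, Benjamini-Hochberg adjusted p = 3.58e-05, limma) and Cxcl1 rose 3.42-fold. C3, the central complement component, rose by 1.60, the transcription factor gene Irf1 by 1.30, the adhesion molecule gene Vcam1 by 1.23 and the chemokine gene Ccl2 by 0.90. Ccl20 (0.91), Cxcl2 (0.54), Steap4 (0.58), Ptges (0.49), Plau (0.42), Gadd45b (0.41) and Nos2 (0.41), given as differences, also rose. The one that fell was Nfe2l2 (-0.43, Benjamini-Hochberg adjusted p = 0.0344, limma), which encodes the antioxidant factor NRF2. Among targets that did not pass were Sod2 (0.08), Birc3 (0.30) and Ptgs2 (-0.40). Several of these targets, Irf1, Ccl2, Ccl7 and Vcam1 among them, are known to respond to interferons too. The number of targets that rose was 7 without scrambled shRNA replicate 1 or without scrambled shRNA replicate 2, 10 without Gld2 shRNA replicate 2 and 15 without Gld2 shRNA replicate 1.

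Kinases and adaptors carry the signal from the receptors to NF-kB. Of 24 measured, 0 rose and 0 fell by limma with adjustment, where 1.69% of all genes rose and 2.41% fell. At an unadjusted p under 0.05 by limma, 4 of the 24 were higher and 6 lower. Over all 14497 genes 1339 were higher and 2348 lower at that unadjusted p. The median of the 24 was -0.03. With a level-dependent prior variance 3 rose and 3 fell, as many as with genes under the 25th percentile removed, so the count of 0 depended on the processing. The members with the smallest p were the kinase gene Irak1 (-0.33, adjusted p = 0.0515) and the ubiquitin ligase gene Traf6 (-0.30, adjusted p = 0.0524), both of interleukin-1 and Toll-like receptor signalling. Next came the adaptor gene Myd88 (0.36, adjusted p = 0.0770) and the kinase gene Ripk2 (0.37, adjusted p = 0.0851), on the other side of 0 (limma, Benjamini-Hochberg adjusted). Each of these 4 was past the threshold in some alternatives.

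Of 5 other subunit and IkB family genes, 1 rose and 0 fell (1 lower at an unadjusted p under 0.05, by limma). It was Nfkbiz, a nuclear IkB protein that NF-kB needs at some cytokine genes, with values of 9.64 and 9.51 against 8.86 and 8.55 and a difference of 0.87 (standard error 0.114, Benjamini-Hochberg adjusted p = 0.0188, limma). Its call was lost without scrambled shRNA replicate 2 and with all probe sets in the fit. Rela, which encodes the main activating subunit, had a difference of -0.16 with a 95% confidence interval from -0.30 to -0.01 and did not pass (Benjamini-Hochberg adjusted p = 0.180, limma). Nfkbib (0.14) and Bcl3 (0.35) did not pass either.

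Of 14 other feedback inhibitors, 1 rose and 0 fell (0 lower at an unadjusted p under 0.05, by limma). It was Zc3h12a, an RNase that degrades mRNAs of cytokines such as Il6, with values of 9.78 and 9.56 against 8.87 and 8.72. The difference was 0.87 with a standard error of 0.0960 (Benjamini-Hochberg adjusted p = 0.0101, limma), and the call was lost when either scrambled shRNA culture was left out. Zfp36, which encodes another protein that destabilises cytokine mRNAs, had 0.59 with a wide interval from 0.23 to 0.95 and did not pass, although it did in 5 of 13 alternatives, among them the replicate block (Benjamini-Hochberg adjusted p = 0.0145, limma, of a range from 8.70e-05 to 0.401). Cyld (0.21), a deubiquitinase, and Tnfaip8l2 (0.30) did not pass either.

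In the receptor list, which holds receptors of these and related cytokines, Toll-like receptors and their co-receptors, and the antagonist gene Il1rn, 2 of 16 measured genes rose, 1 fell and 13 did not pass. Il1r1, the signalling receptor of interleukin-1, rose by 0.64 (adjusted p = 0.0319), and Tnfrsf1b, the second receptor of tumour necrosis factor, rose by 0.40 with an adjusted p of 0.04999 that barely passed (limma, Benjamini-Hochberg adjusted). Il6r, the binding receptor of interleukin-6, fell by 0.57 (Benjamini-Hochberg adjusted p = 0.0464, limma), with values of 9.18 and 8.88 against 9.63 and 9.57, while the level of its ligand's gene Il6 was higher. Il6st, the shared signal chain, had -0.28 and did not pass. All 3 calls were lost without scrambled shRNA replicate 1 or without scrambled shRNA replicate 2, and those of Tnfrsf1b and Il6r also without Gld2 shRNA replicate 2.

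Most other cytokine genes did not pass the test. Of 20 measured, 1 rose and 0 fell (1 lower at an unadjusted p under 0.05, by limma), and the median was 0.10. Csf1, the growth factor of microglia and macrophages, rose by 0.74 (standard error 0.0806, Benjamini-Hochberg adjusted p = 0.0101, limma), a call lost when either scrambled shRNA culture was left out. Lif (0.30), Osm (0.32) and Il10 (0.30) did not pass. The integrin genes whose products bind ICAM-1 on leukocytes, with Icam2, had 0 of 4 past the threshold in either direction (0 also at an unadjusted p under 0.05, by limma), with differences from 0.05 for Itgal to 0.14 for Itgam.

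**Figure D4:**
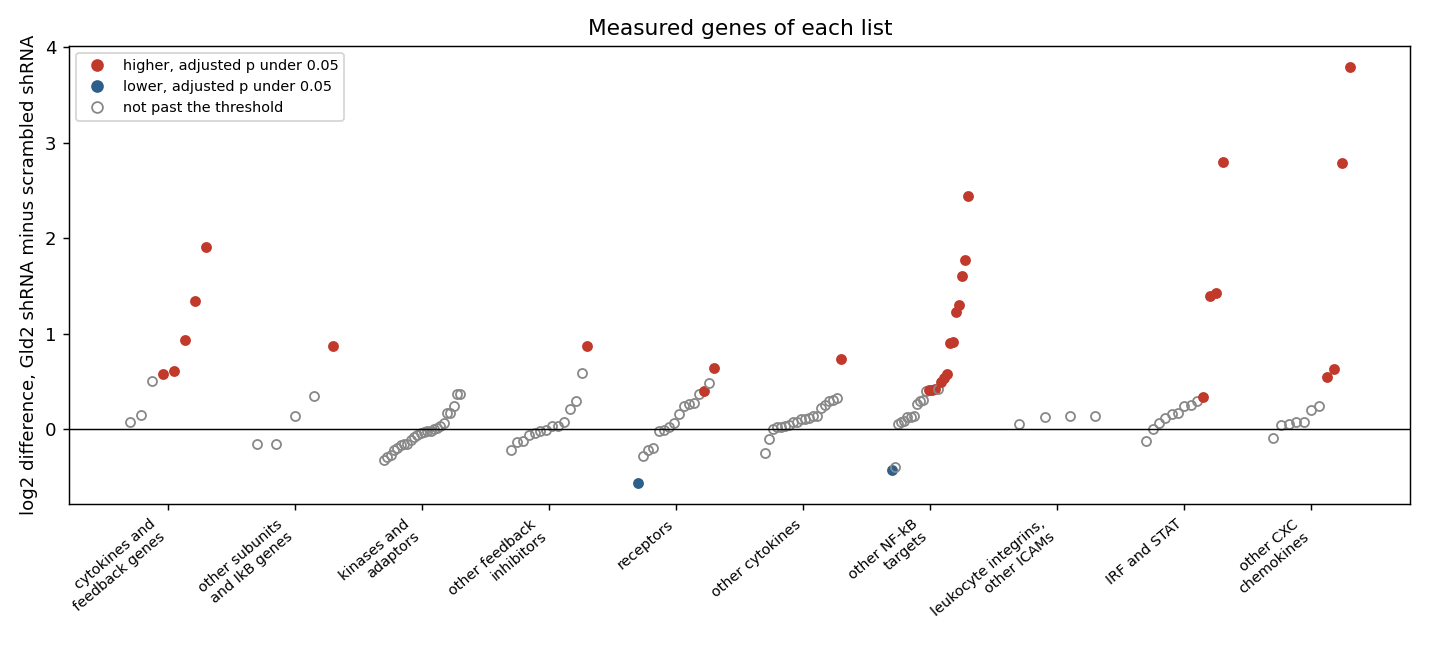
Log2 difference (y axis, Gld2 shRNA minus scrambled shRNA) of every measured gene of each list (x axis); filled points passed an adjusted p of 0.05 in limma's fit over all genes, red higher and blue lower. Points past the threshold are frequent among the other NF-kB targets (13 higher of 26) and number 0 among the 24 kinases and adaptors. Over all genes 1.69% were higher and 2.41% lower.

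Lists of interferon-linked genes were set beside these results, and a few of their members had larger differences than any of the 8 genes. Of 13 measured IRF and STAT genes, 4 rose and 0 fell (0 lower at an unadjusted p under 0.05, by limma), Irf7 by 2.80, Stat2 by 1.43, Irf9 by 1.40 and Irf2 by 0.34. The call of Irf2 was lost in 6 of 13 alternatives, among them those without Gld2 shRNA replicate 2, without scrambled shRNA replicate 1 and without scrambled shRNA replicate 2. Stat3, the factor through which interleukin-6 signals, had 0.25 and did not pass. Of 11 other CXC chemokine genes, 4 rose and 0 fell (0 lower at an unadjusted p under 0.05, by limma), Cxcl11 by 3.79, Cxcl10 by 2.78, Cxcl16 by 0.63 and Cxcl9 by 0.54. The calls of Cxcl16 and Cxcl9 were lost without scrambled shRNA replicate 1 or without scrambled shRNA replicate 2, and that of Cxcl9 also with cyclic loess and with all probe sets in the fit. The medians of these lists were 0.24 and 0.20, against 0.59 for the 8 genes, and the difference between the lists was not tested. The part of the interferon response in the levels of the 8 genes was not tested.

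The markers of cell types bear on which cells these transcripts came from. The neuronal markers Snap25 and Slc17a7 averaged 13.32 and 13.36 with the knockdown and 13.33 and 13.35 in the controls. Of 11 neuronal markers 8 were below 0, with Gad2 (-0.24), Nefm (-0.19) and Syt1 (-0.16) the lowest, and 0 passed the threshold (0 higher and 3 lower at an unadjusted p under 0.05, by limma). Their summed level was 74765 and 74819 against 77462 and 77387, lower in both knockdown cultures. Over all 14497 genes the summed level was also lower in both, at 1.736e+07 and 1.705e+07 against 1.748e+07 and 1.744e+07. Of all genes, 7798 were below 0 and 6699 above it. At an unadjusted p under 0.05 by limma, 1339 of all genes were higher and 2348 lower. The astrocyte markers Gfap and Aqp4 averaged 13.29 and 12.73 with the knockdown and 13.18 and 12.65 in the controls, so the cultures labelled as neurons carried abundant astrocyte transcripts. Of 13 microglia markers, 0 passed the threshold (3 higher and 0 lower at an unadjusted p under 0.05, by limma), and 12 were above 0, with differences from -0.02 to 0.30 and a median of 0.14. The 3 higher ones were Cx3cr1 (0.30), C1qb (0.24) and Tyrobp (0.21). The summed level of the 13 markers on the linear RMA scale was 3088 and 3356 with the knockdown against 2881 and 2947 in the controls. The dimmest of these markers, Aif1, Itgam and Ptprc, averaged 7.03, 6.67 and 6.63 with the knockdown and 6.94, 6.53 and 6.49 in the controls. The brightest, Tmem119 and Cd68, averaged 8.76 and 8.65 with the knockdown and 8.71 and 8.67 in the controls. No detection call was among the data used here. Of 9 astrocyte markers, 0 rose and 1 fell, Gja1 (-0.39), and their summed level was 44745 and 43186 against 43304 and 44089. Of 9 endothelial and mural markers, 0 passed (2 higher and 1 lower at an unadjusted p under 0.05, by limma), with a summed level of 2186 and 2311 against 2308 and 2302. Of 7 fibroblast and 5 dividing-cell markers 0 passed by limma, with 1 higher and 0 lower, and 1 higher and 1 lower, at an unadjusted p under 0.05. Of 8 oligodendrocyte markers, Cnp rose (0.54) and 0 fell (1 lower at an unadjusted p under 0.05, by limma). The part of these cell types in the levels of Tnf, Il6, Lcn2 and Icam1 was not tested. In such bulk RNA, more cells of a type and more RNA per cell cannot be told apart.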

How the data were processed

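The deposited values are log2 values that the authors made with RMA, per the submitters' processing notes, which also name the affy package. Its versions and settings are not stated there. RMA subtracts a modelled background and equalises the arrays' distributions, which compresses differences at low signal. The table held 28826 probe sets on 4 arrays, and the 15209 with exactly 1 gene symbol in the platform annotation gave 14497 genes, the brightest probe set standing for each. No listed gene needed an older symbol.

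The 2 groups were compared with lmFit and eBayes of limma 3.58.1 (R 4.3.3) in a two-sided test, p-values being adjusted by Benjamini-Hochberg across the 14497 genes and called under 0.05, on 2 residual degrees of freedom plus 3.96 from moderation. Differences are Gld2 shRNA minus scrambled shRNA. The p-values rest on the spread between cultures that may not be independent preparations, and precision is limited by the number of arrays. On simulated data for this comparison (14497 genes, 50 changed at each size) the fit recovered 2% of genes changed 1.25-fold and 76% of those changed 1.5-fold. It recovered 100% of those changed 2-fold or 4-fold, and made 5 false calls. The simulation drew its variances from limma's own prior and used independent normal noise. The assumptions of the fit therefore held by construction, and the real data may depart from them.

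The members and lists were chosen with earlier results of these data known. Named genes were the members, Tent2, up to 4 genes of each list with the smallest p, the 3 genes nearest to Lcn2 and the genes behind small counts; Sod2, Birc3, Ptgs2, Stat3, Il1rn, the marker genes and the remaining risen targets were named after their values were seen. Promoters came from the RefSeq table of GRCr8 and were searched on both strands. Alternatives covered a level-dependent prior variance, filters on dim genes, median centring, cyclic loess, averaged probe sets, a fit on all probe sets, a replicate block, no moderation, and leaving out each culture.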

Additional observations from a re-analysis of the deposited data

How the results depend on the processing

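Counts of genes past the threshold moved with the settings. The differences of the 8 genes can move only with cyclic loess, median centring or a culture left out. The other settings leave these differences as they were by design, so the counts and the median difference are not compared for stability. Over all genes, 245 were higher and 349 lower. With a level-dependent prior variance these became 621 and 1611, with median centring 558 and 1367, with all probe sets in the fit 127 and 50, and without moderation 1 and 0. Lower genes numbered 949 and 1287 with genes under the 25th percentile or under the median left out. Leaving out 1 culture gave 82 to 1283 higher and 3 to 1406 lower genes. Of the 8 genes, 5 were past the threshold and higher, against 3 with genes under the median left out, which removes Tnf and Il6 from the fit, 0 without moderation, and 2 to 5 with 1 culture left out. After genes under the 25th percentile were removed the count was still 5, but Il6 had left the fit and Nfkb2 passed. The other NF-kB pathway lists, 18 higher and 2 lower, had 29 and 8 with a level-dependent prior variance, 32 and 7 with median centring, 9 and 0 with all probe sets in the fit, and 0 and 0 without moderation. They had 6 and 7 lower with genes under the 25th percentile or under the median left out, and 7 to 29 higher and 0 to 9 lower with 1 culture left out. The median difference of the 8 genes, or of those that a filter on dim genes left, lay between 0.57 and 0.66. The difference of Nfkb1 ran from -0.03 to 0.17, that of Il1b from 0.06 to 0.23 and that of Nfkb2 from 0.38 to 0.63. Cyld turned to -0.0018 with the mean of its probe sets, and Itgal to -0.010 with cyclic loess and -0.074 without Gld2 shRNA replicate 2, its range with 1 culture left out being -0.074 to 0.18. The cause of these changes was not tested. With the replicate number as a replicate block, 233 genes were higher and 332 lower, 5 of the 8 genes passed, and 20 and 2 of the pathway lists did. The deviations of same-numbered cultures correlated at 0.14 over genes, and with 2 numbers the cultures are not shown to be pairs.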
